A study of Homo sapiens with 18 samples.

Results

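The 10 genes described here encode surface markers of myeloid differentiation, or the enzyme that makes such a marker. They are ITGAM, ITGAX, ITGB2, CD14, CD33, FUT4, ANPEP, CD38, CD48 and FCGR1A. They were chosen as markers of differentiation, with earlier results of these data known, and all 10 were found among the 19974 protein-coding genes on chromosomes 1 to 22 and X of the RefSeq gene table (GRCh38.p14). A peak was counted at a gene when it overlapped the gene, extended by 10 kb at each end, by at least 1 bp. The peaks are places called with an antibody against ETO or the Flag tag, to locate the leukaemia fusion protein AML1-ETO. The cells were Kasumi-1, an established acute myeloid leukaemia cell line with the t(8;21) translocation.

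All cells carried Flag-tagged AML1-ETO and differed by treatment, being either control or miR-130a knockdown. They were transduced and sorted as viable GFP-positive cells after 3 days. Chromatin was profiled by CUT&RUN, in which a nuclease tethered to an antibody cuts out the DNA around the bound protein for sequencing. In each condition 3 libraries were made with anti-ETO, 3 with anti-Flag and 3 with mouse IgG, 18 in all. The IgG libraries were not used here. The labels do not say what vector the control cells received, whether the tag sits on the endogenous fusion gene, whether the cells are 1 clone, or whether the 3 libraries of a group came from separate cultures.

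AML1-ETO joins the DNA-binding Runt domain of RUNX1 (AML1) to nearly all of RUNX1T1 (ETO), a protein that recruits corepressors and histone deacetylases. RUNX1 binds a core of TGTGGT and is a regulator of myeloid genes. Leukaemic blasts with the fusion are halted in myeloid differentiation. Not all of the proteins described here mark late stages, as CD33 is present from early myeloid cells onward. The comparison of control with knockdown asks whether depleting the microRNA alters where the fusion protein sits.

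The values are peak positions without heights or scores, in 1 list per antibody and condition. The 4 single-antibody lists held 14264 (control anti-ETO), 23162 (control anti-Flag), 22594 (knockdown anti-ETO) and 25961 (knockdown anti-Flag) peaks. The authors derived 5 further lists. These are the sites called by both antibodies in control (12247) and in knockdown (13712), here termed dual-antibody peaks, and the shared (8731), control-unique (3059) and knockdown-unique (4617) intervals made from those 2. No value per library was used here, so no spread between replicates and no test over libraries could be given. The depth behind a call is unknown, and a peak missing from a list shows only that none was called there. Knockdown of miR-130a, and the level of any marker, was not measured in these files. The genes' exons and introns were not used here, so peaks are placed relative to gene ends and, for the 8 members with an entry in the RefSeq promoter table, to the start site.

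Most of the marker genes had peaks of both antibodies in both conditions. Control anti-ETO peaks were found at 8 of the 10 genes, where 47.6% of all protein-coding genes had 1. For control anti-Flag the count was 9 of 10 (50.2% of all genes), for knockdown anti-ETO 9 of 10 (53.8%) and for knockdown anti-Flag 8 of 10 (42.2%). Peaks in all 4 lists were found at 7 genes (37.3% of all genes), namely ITGAM, ITGB2, CD14, CD33, FUT4, CD48 and FCGR1A. CD38 had none in any of the 4 lists, like 41.6% of all genes. These shares describe the lists and are not tests. A list of 22 other myeloid surface genes, given further below, had lower shares than all genes in each of these 4 lists.

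Both antibodies together called 8 of the 10 genes in control (43.8% of all genes) and 8 of the 10 in knockdown (39.4%). Among protein-coding genes no shorter than CD14 and no longer than CD38, the shortest and longest members, the shares of all genes were 45.8% and 42.6%. The set of called genes differed by a single gene each way. ANPEP had a dual-antibody peak in control and none in knockdown, as did 7.66% of all genes, and ITGAX had 1 in knockdown and none in control, as did 3.26%. Shared peaks lay at 6 members (35.1% of all genes), control-unique peaks at 4 (16.9%) and knockdown-unique peaks at 5 (18.4%). ITGAM, CD48 and FCGR1A had peaks of both unique kinds. Counting only peaks that overlap the gene body left 5 members with a dual-antibody peak in control (33.2% of all genes) and 5 in knockdown (30.5%). The peaks of CD14, CD33 and ANPEP that both antibodies called, and that of ITGAX, lay outside the gene bodies.

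**Figure D1:**
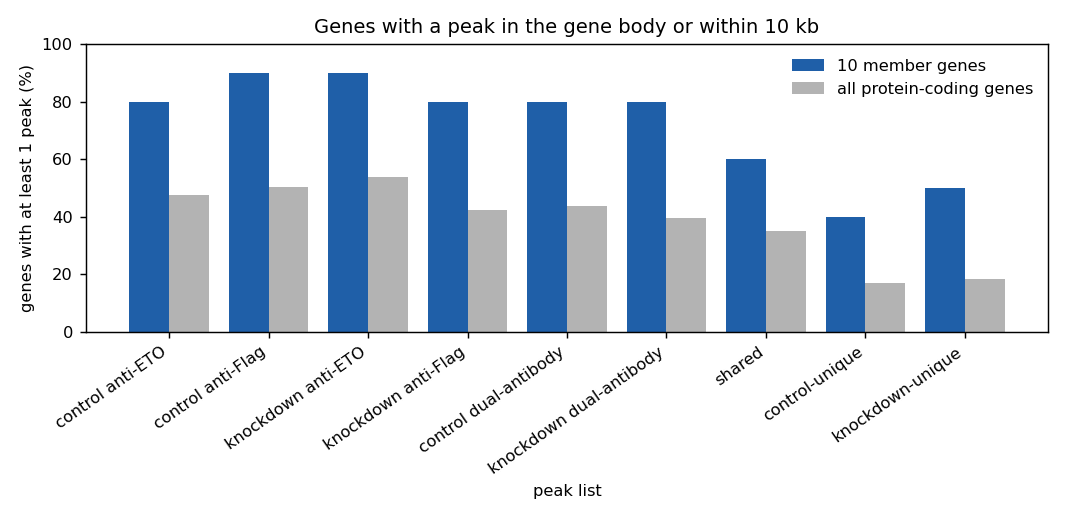
Percentage of genes (vertical axis) with at least 1 peak in the gene or its 10-kb flanks, for each of the 9 peak lists (horizontal axis); blue bars are the 10 marker genes and grey bars the 19974 protein-coding genes. The blue bar is the taller in each list, with 8 or 9 genes in the single-antibody lists and 4 to 8 in the derived lists.

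Start sites of the markers differed in which lists called them. A promoter window here runs from 250 bases before to 50 bases after an annotated start site. Of the 8 members with an entry, 3 had a control anti-ETO peak in the window (32.6% of 15812 protein-coding genes with an entry did), namely ITGAM, FUT4 and ANPEP. Control anti-Flag peaks lay in 4 windows (32.3% of genes), those 3 and CD48. Knockdown anti-ETO peaks also lay in 4 (38.7%), with FCGR1A in place of CD48, and knockdown anti-Flag peaks in 2 (23.8%), ITGAM and FCGR1A. The counts over members are thus near the shares over all genes. The windows of CD14, CD33 and CD38 held no peak of any list.

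The 5 promoters with a peak are shown because their calls, or in ITGAM the extent of its peaks, differ by condition or antibody. They are RefSeq sequence of GRCh38.p14, written 5′ to 3′ along the gene from 250 bases before the start site to 29 after it, with the start site counted as 0. Capitals mark matches on either strand to the RUNX core TGTGGT or to the ETS core GGAAGT, whose reverse complement is ACTTCC, and the stretches of FUT4, FCGR1A and CD48 hold neither.
ITGAM, chr16:31259725-31260004, plus strand: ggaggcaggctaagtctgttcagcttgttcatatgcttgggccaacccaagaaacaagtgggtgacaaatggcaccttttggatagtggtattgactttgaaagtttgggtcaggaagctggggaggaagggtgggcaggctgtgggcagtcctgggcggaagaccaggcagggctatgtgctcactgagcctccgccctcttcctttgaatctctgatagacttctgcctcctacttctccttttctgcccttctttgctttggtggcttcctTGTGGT
FUT4, chr11:94543671-94543950, plus strand: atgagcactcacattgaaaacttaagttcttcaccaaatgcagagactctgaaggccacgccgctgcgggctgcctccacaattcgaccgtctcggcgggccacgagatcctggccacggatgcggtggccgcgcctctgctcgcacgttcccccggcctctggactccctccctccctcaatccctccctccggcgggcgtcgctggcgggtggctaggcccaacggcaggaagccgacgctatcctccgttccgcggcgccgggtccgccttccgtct
ANPEP, chr15:89814823-89815102, minus strand: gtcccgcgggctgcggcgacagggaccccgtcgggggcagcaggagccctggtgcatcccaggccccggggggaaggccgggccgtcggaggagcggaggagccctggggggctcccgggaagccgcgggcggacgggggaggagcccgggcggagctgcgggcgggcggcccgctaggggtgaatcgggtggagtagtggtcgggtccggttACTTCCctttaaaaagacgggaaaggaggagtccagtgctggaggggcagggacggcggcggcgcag
FCGR1A, chr1:149782444-149782723, plus strand: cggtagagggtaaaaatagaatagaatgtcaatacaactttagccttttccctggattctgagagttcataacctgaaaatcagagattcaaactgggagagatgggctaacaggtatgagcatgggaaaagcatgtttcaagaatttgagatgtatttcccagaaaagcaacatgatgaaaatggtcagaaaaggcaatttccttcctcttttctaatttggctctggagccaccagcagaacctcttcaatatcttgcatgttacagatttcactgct
CD48, chr1:160711793-160712072, minus strand: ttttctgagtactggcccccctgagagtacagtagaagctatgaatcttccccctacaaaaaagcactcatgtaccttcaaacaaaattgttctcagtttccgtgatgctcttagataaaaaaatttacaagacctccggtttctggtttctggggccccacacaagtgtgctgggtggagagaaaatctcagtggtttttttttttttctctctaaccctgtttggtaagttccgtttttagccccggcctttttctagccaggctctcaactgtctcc

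Among these, the RUNX core TGTGGT was present once, in ITGAM, at positions 24 to 29 (chr16:31259999-31260004). It was the only match in the 9 windows of the 8 members, ANPEP having 2 windows, while 13.1% of the 34961 promoters in the table hold it on either strand. The longer form TGTGGTT was met at the same place and is held by 4.28% of promoters. The ETS core GGAAGT was found in ANPEP at -37 to -32 and in CD48 at 40 to 45, past the printed stretch, against 22.8% of all promoters. The AP-1 core TGANTCA was found in CD14 at -223 to -217, against 7.68%. Of the 4892 windows of protein-coding genes with a shared peak, 10.4% hold TGTGGT, and of all 22132 such windows 11.3% do. A match describes letters only, and its absence says nothing of binding at other sequences. GC content of the printed stretches ran from 39.3% in FCGR1A and 43.9% in CD48 through 52.9% in ITGAM and 66.4% in FUT4 to 75.0% in ANPEP, where the median over protein-coding promoters was 62.1%.

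**Figure D2:**
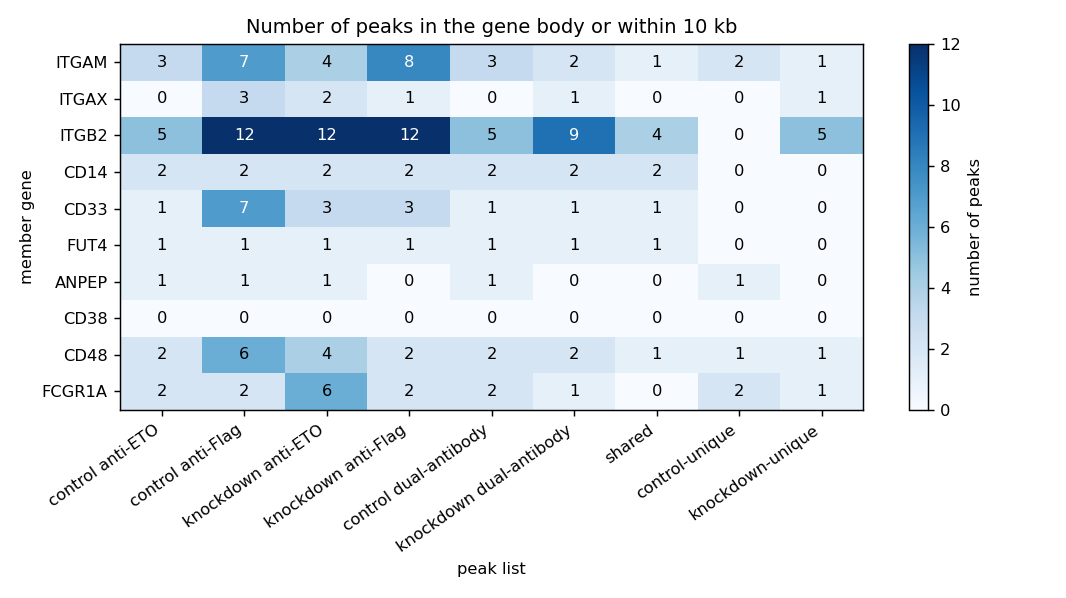
Number of peaks per gene and its 10-kb flanks (number and shade in each cell) for the 10 marker genes (vertical axis) in the 9 peak lists (horizontal axis). ITGB2 holds 5 to 12 peaks in the single-antibody lists, ITGAX and ANPEP have an empty cell in 1 of these 4 lists each, and CD38 is empty throughout.

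ITGAM encodes integrin alpha M (CD11b), which pairs with the beta 2 chain to form the complement receptor Mac-1 of neutrophils and monocytes. The gene spans chr16:31259975-31332877. It had 3 control anti-ETO, 7 control anti-Flag, 4 knockdown anti-ETO and 8 knockdown anti-Flag peaks, which merge into 9 regions. Over all protein-coding genes, 13.7%, 5.79%, 15.6% and 6.94% had as many or more in the respective list. These shares are over genes of every length, while ITGAM is 72903 bp long and a longer window can hold more peaks. When each knockdown list was cut to its control list's length by keeping the widest peaks, 1 knockdown anti-ETO peak was left at ITGAM. The narrowest peak kept was 381 bp for knockdown anti-ETO and 188 bp for knockdown anti-Flag, while control peaks of every width were kept. Of the 3 control anti-ETO peaks at ITGAM, those of 211 and 236 bp lie below this limit. Counts at equal list lengths are therefore not like for like with control.

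The widest peaks at ITGAM lay over its start site. There the control anti-ETO peak was 1580 bp wide (chr16:31259520-31261099), the control anti-Flag peak 1607 bp (chr16:31259534-31261140) and the knockdown anti-ETO peak 1347 bp (chr16:31259551-31260897). The knockdown anti-Flag list held a pair of narrower peaks instead, of 304 bp (chr16:31259598-31259901) and 809 bp (chr16:31260237-31261045). Between them lies a gap of 335 bp that contains the start site and the TGTGGT shown in capitals above. The authors' shared list joins all of these calls into a single interval of 1621 bp.

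Within the gene, ITGAM had unique intervals of both kinds. A knockdown-unique interval of 397 bp (chr16:31263282-31263678) overlapped a control anti-Flag peak but none for anti-ETO. A control-unique interval of 236 bp (chr16:31301906-31302141) was still called by anti-ETO in knockdown but not by anti-Flag. The other control-unique interval, of 299 bp (chr16:31265240-31265538), was called by both antibodies in both conditions. There the anti-ETO and anti-Flag peaks overlapped by 165 bp in control and by 63 bp in knockdown. When the derived lists were rebuilt from the single-antibody lists, a minimum overlap of 100 bp returned this interval as control-unique, and a minimum of 1 bp turned it into a shared 1, which brought the control-unique peaks at the members from 6 to 5.

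ITGAX encodes integrin alpha X (CD11c), the partner of the beta 2 chain on monocytes, macrophages and dendritic cells, and lies next to ITGAM at chr16:31355176-31382999. It had no control anti-ETO peak, 3 control anti-Flag peaks of 243 to 422 bp, 2 knockdown anti-ETO peaks of 669 and 395 bp, and 1 knockdown anti-Flag peak of 526 bp. The knockdown-unique interval of 669 bp (chr16:31354217-31354885) ended 291 bp below the lower end of the gene. In control, this place had an anti-Flag peak of 243 bp and no anti-ETO peak, so the dual-antibody peak rests on an anti-ETO call present in knockdown only. At equal list lengths, both knockdown calls here stayed. Among the wider 50% of the knockdown dual-antibody list, the interval was absent. A region at the upper end of the gene (chr16:31382534-31382975) likewise had control anti-Flag and knockdown anti-ETO calls, and no knockdown anti-Flag call. The gene has no entry in the promoter table, so its start site is not given.

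ITGB2 encodes the common beta 2 chain (CD18) of the leukocyte integrins, the partner of both alpha chains above, and spans chr21:44885953-44928815. It had the most peaks of the 10 genes, with 5 control anti-ETO, 12 control anti-Flag, 12 knockdown anti-ETO and 12 knockdown anti-Flag peaks. As many or more were found at 4.0%, 1.13%, 0.781% and 3.14% of all protein-coding genes. These shares too are over genes of every length, and ITGB2 is 42863 bp long. Anti-ETO peaks covered 4054 bp in control against 9032 bp in knockdown, and anti-Flag peaks 7010 bp against 7358 bp. Over the whole lists, anti-ETO peaks covered 8.97 Mb in control against 14.96 Mb in knockdown, and anti-Flag peaks 13.53 Mb against 13.19 Mb.

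Of the 14 merged regions at ITGB2, 6 overlap the antisense transcript ITGB2-AS1 at the upper end of the gene and 3 lie below its lower end. All 4 lists called 4 of them, and these carry the 4 shared intervals. The widest shared interval, of 2331 bp (chr21:44926154-44928484), lay 331 bp inside the upper end. Another of 2018 bp (chr21:44880139-44882156) lay 3797 bp below the lower end. In the authors' lists, no interval at ITGB2 was control-unique and 5 were knockdown-unique. Of these, 3 had no control call by either antibody: an interval of 713 bp within the gene (chr21:44907460-44908172), another of 566 bp (chr21:44923482-44924047) and 1 of 232 bp across the upper end of the gene (chr21:44928767-44928998). The other two, of 1092 bp (chr21:44878034-44879125) and 452 bp (chr21:44932576-44933027), overlapped a control anti-Flag peak but none for anti-ETO. With knockdown lists cut to the control lengths, 9 knockdown anti-ETO peaks were left at ITGB2. The derived lists rebuilt from these held 3 shared, 1 control-unique and 4 knockdown-unique intervals there. DNA fragments carry no strand of transcription, so peaks inside ITGB2-AS1 cannot be assigned to either transcript.

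By covered length over the 4 single-antibody lists, the 3 protein-coding genes outside the set closest to ITGB2 were CALR, C6orf47 and CYC1, at Euclidean distances of 507, 895 and 940 bp. CALR, for example, had 4215 bp covered in control anti-ETO, 6571 bp in control anti-Flag, 9218 bp in knockdown anti-ETO and 7417 bp in knockdown anti-Flag. The likeness is over 4 lists only.

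**Figure D3:**
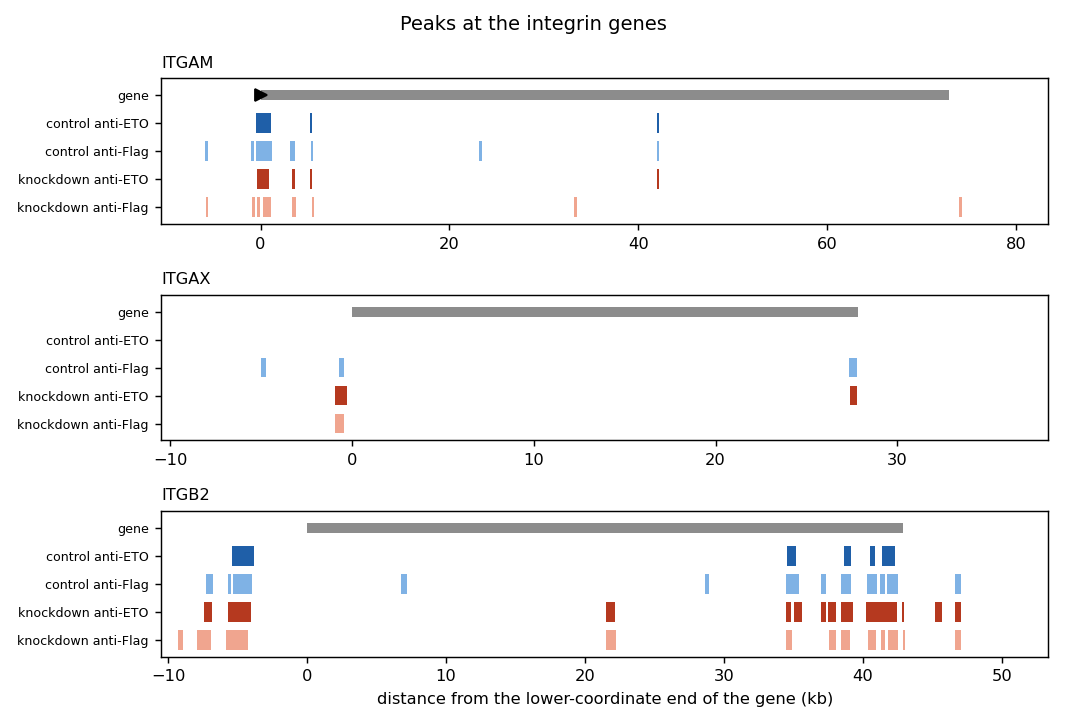
Peaks of the 4 single-antibody lists (rows, coloured boxes) at ITGAM, ITGAX and ITGB2 along the distance from the lower-coordinate end of each gene in kb (horizontal axis); the grey bar is the gene and the black arrowhead the start site and direction where the promoter table gives 1. The ITGAM start is covered in 3 lists and lies in a gap between peaks in knockdown anti-Flag, ITGAX is empty in control anti-ETO, and the ITGB2 peaks crowd near its upper end.

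CD14 encodes the monocyte co-receptor for bacterial lipopolysaccharide and lies at chr5:140631732-140633701. Each single-antibody list held 2 peaks within 10 kb of it, and both places were in the shared list (429 bp, chr5:140638882-140639310, and 833 bp, chr5:140639485-140640317). The calls were thus the same in number in both conditions and with both antibodies. The widths were 199 and 205 bp for control anti-ETO, 310 and 833 bp for control anti-Flag, 429 and 760 bp for knockdown anti-ETO, and 357 and 244 bp for knockdown anti-Flag. No peak overlapped CD14 itself. The nearer interval began 5181 bp above its upper end, and both lie inside the neighbouring gene TMCO6, so their assignment to CD14 rests on the 10-kb window. With a 5-kb window CD14 had 0 peaks in each single-antibody list.

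FCGR1A encodes the high-affinity IgG receptor (CD64) of monocytes and activated neutrophils and spans chr1:149782694-149800609. It had 2 control anti-ETO, 2 control anti-Flag, 6 knockdown anti-ETO and 2 knockdown anti-Flag peaks. At equal list lengths 2 knockdown anti-ETO peaks were left. Control also had 2, but its peak of 241 bp was narrower than any knockdown anti-ETO peak kept by the cut. The shared list held no interval at FCGR1A, although both antibodies called the gene in both conditions. The places that both antibodies called differed between the conditions. In control, both antibodies called an interval of 832 bp (chr1:149787568-149788399) and an interval of 595 bp (chr1:149792408-149793002) inside the gene, and both are control-unique. Each kept anti-ETO calls in knockdown, covering 499 and 250 bp, and had no anti-Flag call there. In knockdown, both antibodies called an interval of 953 bp across the start site (chr1:149782205-149783157), where neither had a call in control. The anti-ETO peak there covered the start site, and the anti-Flag peak ended 80 bp before it.

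Peaks at FCGR1A need care in 2 respects. The gene lies within H2BC18 and overlaps LOC124904411, so its regions are not its own, and 4 of its 5 regions overlap both. It also has near-identical copies on chromosome 1, FCGR1BP and FCGR1CP, between which short reads can be split, and how the authors treated reads with several matches is not given in the sources used here. At FCGR1BP the 4 lists held 1, 3, 4 and 5 peaks in the order control anti-ETO, control anti-Flag, knockdown anti-ETO and knockdown anti-Flag, and at FCGR1CP 2, 1, 3 and 1. Both copies had a shared interval, and FCGR1BP had 2 knockdown-unique intervals.

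CD33 encodes a sialic acid-binding lectin of the Siglec family that is present from early myeloid cells onward, and spans chr19:51211076-51240016. It had 1 control anti-ETO, 7 control anti-Flag, 3 knockdown anti-ETO and 3 knockdown anti-Flag peaks in 8 merged regions. At equal list lengths 1 knockdown anti-ETO peak was left, as in control. Both antibodies met at a single place in both conditions, a shared interval of 1377 bp (chr19:51245463-51246839) that began 5447 bp above the upper end and reaches into SIGLECL1. With a 5-kb window this call ended, leaving CD33 with 0 control anti-ETO and 0 knockdown anti-Flag peaks. Control anti-Flag alone called 4 of the 8 regions, of 179 to 306 bp. Near the start site in the promoter table, control anti-Flag had a peak of 179 bp centred 680 bp before it and knockdown anti-ETO had a peak of 245 bp centred 256 bp after it. These calls were by different antibodies and did not overlap.

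CD48 encodes a lipid-anchored receptor of the SLAM family that binds CD244, and spans chr1:160678746-160711822. It had 2 control anti-ETO, 6 control anti-Flag, 4 knockdown anti-ETO and 2 knockdown anti-Flag peaks in 7 merged regions, all of which overlapped the gene. At equal list lengths 1 knockdown anti-ETO peak was left, fewer than the 2 in control. The shared interval was 904 bp wide (chr1:160703816-160704719). A control-unique interval of 465 bp (chr1:160692411-160692875) had no call by either antibody in knockdown, the only such interval at the 10 genes. A knockdown-unique interval of 579 bp (chr1:160705156-160705734) was covered along its whole length by a control anti-Flag peak and had none for anti-ETO. The start site was covered in control anti-Flag alone, by a peak of 814 bp (chr1:160711650-160712463). The shared and both unique intervals overlap LOC124904439.

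**Figure D4:**
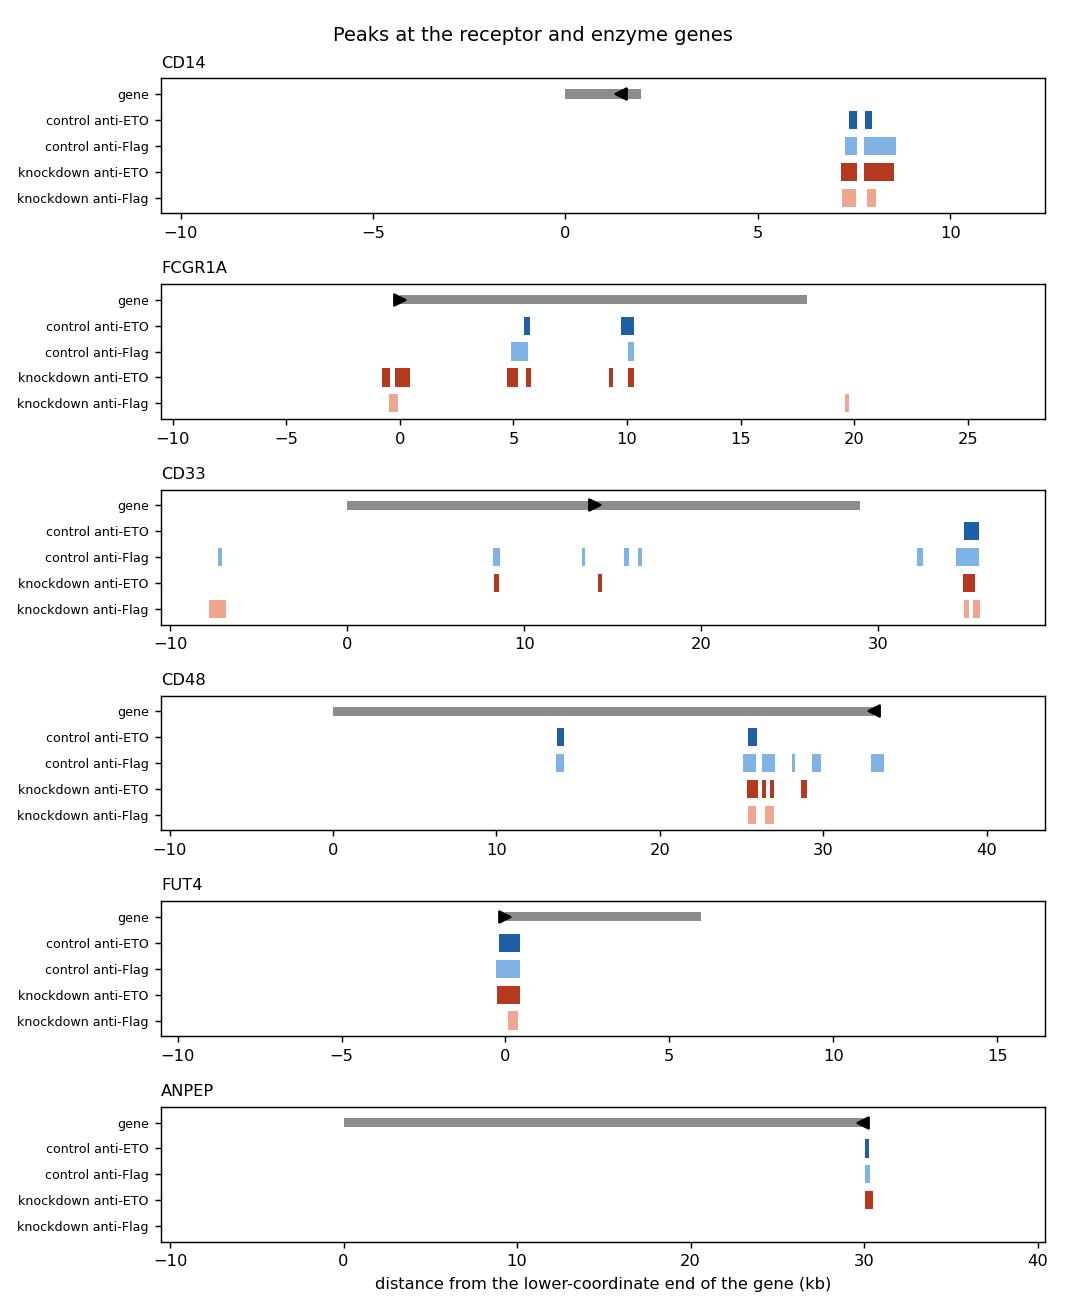
Peaks of the 4 single-antibody lists (rows, coloured boxes) at CD14, FCGR1A, CD33, CD48, FUT4 and ANPEP along the distance from the lower-coordinate end of each gene in kb (horizontal axis); grey bars are genes and black arrowheads the first start site and direction in the promoter table. The boxes line up in all 4 rows at CD14 and FUT4, the FCGR1A start has boxes in knockdown only, and the knockdown anti-Flag row of ANPEP is empty.

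FUT4 encodes the fucosyltransferase that makes the CD15 (Lewis X) sugar of granulocytes and spans chr11:94543921-94549895. Each of the 4 lists held exactly 1 peak there, all at the start of the gene. The peak was 648 bp wide in control anti-ETO (chr11:94543720-94544367), 723 bp in control anti-Flag (chr11:94543641-94544363), 715 bp in knockdown anti-ETO (chr11:94543648-94544362) and 314 bp in knockdown anti-Flag (chr11:94543985-94544298). The first 3 cover the start site, and the knockdown anti-Flag peak began 64 bp after it. The stretch printed above was covered over 231, 280 and 280 of its 280 bases by the first 3 lists and over 0 by knockdown anti-Flag. The shared list holds the place as 1 interval of 727 bp.

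ANPEP encodes aminopeptidase N (CD13), a surface peptidase of granulocytes and monocytes, and spans chr15:89784895-89814852 on the minus strand. Its only region began 75 bp beyond the upper end of the gene, just before the upstream start site of the promoter table. Control anti-ETO had a peak of 233 bp there (chr15:89814927-89815159), control anti-Flag 291 bp (chr15:89814927-89815217), knockdown anti-ETO 509 bp (chr15:89814927-89815435) and knockdown anti-Flag none. The control-unique interval of 291 bp therefore rests on the missing anti-Flag call, while the anti-ETO call was present in both conditions. The other promoter window of the gene, further downstream, held no peak.

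CD38 encodes an ectoenzyme that breaks down NAD and is regulated during myeloid and lymphoid maturation. The gene spans chr4:15778328-15853232, the longest of the 10. It had 0 peaks in each of the 9 lists, within the gene or within 10 kb. BST1, its neighbour and the other ADP-ribosyl cyclase gene, had 1 control anti-ETO, 2 control anti-Flag, 1 knockdown anti-ETO and 0 knockdown anti-Flag peaks, with 1 control-unique interval.

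Merging the 4 single-antibody lists gave 50 regions at the 10 genes. All 4 lists called 11 of them (22%, against 24.8% of the 35622 regions of the whole series), and 26 had calls in both conditions (52% against 48.8%). Regions called by anti-Flag only, in either or both conditions, numbered 18 (36% against 36.3%). Those called by anti-ETO only numbered 4 (8% against 13.4%). Such regions lack a call by the other antibody. Calls in control alone made up 12 regions (24% against 13.4%) and calls in knockdown alone 12 (24% against 37.8%). Control anti-Flag alone called 11 regions (22% against 10.2%), which lay at CD33 (4), CD48 (3), ITGB2 (2), ITGAM (1) and ITGAX (1). Knockdown anti-Flag alone called 4 (8% against 22.3%), and control anti-ETO alone called 0 (against 1.4%). These shares rest on few regions, of which 14 lie at ITGB2, and carry no test.

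Peak numbers at the members were 17 in control anti-ETO, 35 in knockdown anti-ETO, 41 in control anti-Flag and 31 in knockdown anti-Flag. The anti-ETO number was thus higher and the anti-Flag number lower in knockdown. Over the whole lists both were higher in knockdown, with 22594 against 14264 anti-ETO and 25961 against 23162 anti-Flag peaks. Cut to the lengths of the control lists, the knockdown anti-ETO list held 20 peaks at the members and the knockdown anti-Flag list 30. The cut kept no knockdown anti-ETO peak under 381 bp and no knockdown anti-Flag peak under 188 bp. Control peaks at the members went down to 199 bp for anti-ETO and 179 bp for anti-Flag. The cut numbers are therefore not like for like with the control numbers. Median width at the members and over all peaks was 497 and 461 bp for control anti-ETO, 377 and 416 bp for control anti-Flag, 452 and 453 bp for knockdown anti-ETO, and 402 and 364 bp for knockdown anti-Flag.

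The unique intervals at the members showed which antibody's call differed. Of the 6 control-unique intervals, 5 overlapped a knockdown anti-ETO peak and 1 a knockdown anti-Flag peak, and 1 (at CD48) overlapped neither. Over the whole control-unique list the shares were 76.7%, 5.17% and 20.2%. Of the 9 knockdown-unique intervals, 0 overlapped a control anti-ETO peak, 5 a control anti-Flag peak (at ITGAM, ITGAX, ITGB2 and CD48) and 4 neither (3 at ITGB2 and 1 at FCGR1A). Over the whole knockdown-unique list these shares were 6.82%, 56.1% and 38.1%. In each case the antibody with more calls in the other condition was the same at the members as over the list. With knockdown lists cut to the control lengths and the derived lists rebuilt, knockdown-unique peaks lay at 3 members, ITGAX, ITGB2 and FCGR1A, and no longer at ITGAM and CD48. The knockdown anti-ETO peaks behind those lost intervals were 377 bp at ITGAM and 254 and 282 bp at CD48. All were under the 381 bp of the narrowest peak kept, a limit that control peaks did not have to meet. The share of all genes in these rebuilt lists is not given.

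Genes related to the members in family or pathway were read in the same way, from lists chosen by name. Peak numbers are given in the order control anti-ETO, control anti-Flag, knockdown anti-ETO and knockdown anti-Flag. For the counts of genes that follow, 43.8% of all protein-coding genes had a control and 39.4% a knockdown dual-antibody peak. Among 10 other leukocyte integrin genes, 6 had a dual-antibody peak in control and 6 in knockdown. ITGAL, the alpha chain of the lymphocyte integrin LFA-1, had 1 control anti-ETO, 2 control anti-Flag, 3 knockdown anti-ETO and 15 knockdown anti-Flag peaks. ITGB7, ITGB3 and ITGA4 also had peaks in all 4 lists. Among 8 Fc receptor genes, 4 had a control and 5 a knockdown dual-antibody peak. FCGR2A, a low-affinity IgG receptor, had 4, 9, 8 and 5 peaks. FCER1G, the signalling chain that pairs with FCGR1A, had 0, 3, 4 and 2, with 1 knockdown-unique interval and no control dual-antibody peak.

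Of 13 Siglec relatives of CD33, 2 had a dual-antibody peak in control (SIGLEC7 and SIGLEC9, against 43.8% of all genes) and 6 in knockdown (39.4%). A knockdown-unique peak lay at 6 (18.4% of all genes) and a control-unique peak at 0 (16.9%). SIGLEC9 had 1, 6, 4 and 6 peaks and SIGLEC6 had 0, 5, 2 and 5. Most of these genes are neighbours on chromosome 19, so their windows are not independent. Of 10 other fucosyltransferase genes, 6 had a control and 5 a knockdown dual-antibody peak. FUT7, the enzyme of selectin ligands in leukocytes, had 5, 9, 5 and 10 peaks and 3 shared intervals.

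Of 10 other CD2 and SLAM family genes, 4 had a control and 5 a knockdown dual-antibody peak. CD244, the receptor that binds CD48, had 4, 8, 6 and 9 peaks and 4 shared intervals. CD58 had 3, 4, 3 and 2 peaks with 2 control-unique intervals. Among 12 genes of the lipopolysaccharide receptor pathway, 3 had a control and 2 a knockdown dual-antibody peak. MYD88 and TICAM1, adaptor proteins of toll-like receptors, had 2 and 1 dual-antibody peaks in control and 3 each in knockdown. Among 7 surface enzyme genes, 2 had a control (LNPEP and BST1) and 1 a knockdown dual-antibody peak.

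Of 22 other myeloid surface genes, 4 had a dual-antibody peak in control and 3 in knockdown. They included TYROBP, the signalling adaptor of myeloid receptors, with 7, 10, 6 and 10 peaks, and CSF1R, the macrophage growth factor receptor, with 2, 2, 1 and 1. CD68 and CSF3R had a control-unique peak each and no knockdown anti-Flag peak. Of 16 genes listed as lymphoid surface proteins, 5 had a dual-antibody peak in each condition, among them CD7, CD79A and CD4. CD7 had 1, 5, 4 and 13 peaks.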

How the data were processed

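Anti-ETO, anti-Flag and IgG CUT&RUN libraries of Kasumi-1 cells, 3 per antibody and condition, were grouped by their titles. Per the labels' protocols, fragments of 150 to 400 bp were selected and sequenced as 75-bp paired reads, with some 40 M reads planned for each. The submitters' processing notes name fastp 0.19.5, Bowtie2 2.3.5, MACS2 2.2.5, HOMER 4.8 and the builds hg38 and sacCer3, with no role or order. The 9 deposited files hold other values than counts or signal: chromosome, start and end of each interval, with no score. Threshold, use of IgG and pooling of replicates are not given in the sources used here.

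Gene positions, start sites and sequences came from RefSeq tables of GRCh38.p14, the assembly of hg38. Positions are printed with starts counted from 1. Overlaps were computed in Python 3.11.15 with numpy 2.4.6 and pandas 2.3.3, with 1 bp as the minimum, and tested on simulated lists of 2000 intervals, where 8 of 8 checks gave the planted answer. Named are all members, up to 4 genes of each related list with the most peaks, coding genes under a member's peak and the 3 genes closest to the member with the most covered length. The members and lists were chosen with earlier results of these data known. FCGR2C, a pseudogene in the table, was not counted, and CD27, which is no enzyme, was taken off its list after the data were seen. Of the genes this rule names, 1 of the lymphoid list is not reported here. FUT10 and FUT11 were matched through older symbols. Alternatives were other flanks, the peak centre, the wider 50% of each list, equal list lengths, other merging gaps, rebuilt derived lists and a longer RUNX core, of which the rebuilt lists with a 100-bp overlap were chosen after seeing the data.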

Additional observations from a re-analysis of the deposited data

How the results depend on the processing

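No paired analysis was possible because the deposited lists carry no replicate number, and for the same reason no replicate could be left out. Of 156 recomputed values over all members, 115 stayed within 1.5 times the main count and 41 did not. Counts for single genes are not in this total. Of these, 24 moved beyond that limit and 16 stayed at a 50-kb flank. The wider 50% moved 22 and kept 18, and gene bodies alone moved 16 and kept 24. A 5-kb flank moved 6 and kept 34, equal list lengths moved 4 and kept 16, and peak centres moved 0 and kept 40. Peak centres in the window, a 5-kb flank, merging across 100 bp, the longer RUNX core and both rebuilt versions of the full lists moved no count over all members by more than 1.5 times. A 5-kb flank left CD14 with 0 peaks and CD33 with 0 control anti-ETO and 0 knockdown anti-Flag peaks, so that dual-antibody peaks lay at 6 members in each condition and shared peaks at 4. Counting gene bodies alone left 5 members with a control anti-ETO peak, 4 with a knockdown anti-Flag peak, 5 with a dual-antibody peak in each condition and 0 with such a peak in control or in knockdown only. It left 27 control anti-Flag, 14 knockdown anti-Flag, 12 knockdown dual-antibody and 6 shared peaks. Within 50 kb, 36 control anti-ETO, 83 control anti-Flag, 63 knockdown anti-ETO and 67 knockdown anti-Flag peaks were found, with 35 control and 36 knockdown dual-antibody, 21 shared, 12 control-unique and 15 knockdown-unique peaks. Control-unique peaks then lay at 8 members, and 2 members had a dual-antibody peak in control only. Shares of all genes are given for the 10-kb flank and in part for gene bodies, not for other flanks, the wider 50% or cut lists. Counts of members under those settings therefore cannot be set against the 10-kb shares. The wider 50% of each list held 9 control anti-ETO, 19 control anti-Flag, 17 knockdown anti-ETO, 16 knockdown anti-Flag, 11 control dual-antibody, 8 knockdown dual-antibody, 4 shared and 2 control-unique peaks. It gave shared peaks at 3 members, control-unique peaks at 1 and knockdown dual-antibody peaks at 5, with a dual-antibody peak in control only at 2 and in knockdown only at 0. Merged regions then numbered 26, of which 7 were in all 4 lists, 13 in both conditions, 6 in control and 7 in knockdown only. With each knockdown list cut to its control list's length, 20 knockdown anti-ETO peaks were left, with the losses at ITGAM, ITGB2, CD33, CD48 and FCGR1A. The cut dropped knockdown anti-ETO peaks under 381 bp and left the control lists whole. Rebuilding the derived lists from these, an alternative chosen after seeing the data, left knockdown-unique peaks at 3 members (ITGAX, ITGB2 and FCGR1A). Peak width stands in for a score here, and the cause of these shifts beyond the smaller or larger windows and lists was not tested. The depth behind single calls is unknown, which limits every absence stated.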
